A study of Mus musculus with 15 samples.

Results

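ORR1 elements are long terminal repeat (LTR) retrotransposons of the rodent branch of the MaLR family (mammalian apparent LTR retrotransposons). The data described here are small RNAs of mouse testis that map to them. By the authors' methods these are reads in annotated clusters of Piwi-interacting RNAs, so RNAs from ORR1 copies elsewhere may be missing. Members were all deposited loci whose annotation gave the class LTR, the family ERVL-MaLR and a repeat name that begins with ORR1. A locus is 1 genomic interval with a strand, that is, 1 distinct mapped small RNA end to end, with a read count. This selected 115522 of the 8128951 loci listed over the 15 libraries, under 27 repeat names. The name carries a letter from A to G for the subfamily and the ending "-int" for the internal part that lies between the LTRs. The rule reads the annotation alone.

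All libraries were small RNA from testis of male C57Bl/6 mice aged 8 weeks, with no genetic change and no in vivo treatment. They formed 2 sets made with different kits. In the first, 3 mock-treated libraries (called untreated in part of the labels) were set beside 3 libraries of RNA treated with CMC, a carbodiimide that stays bound to pseudouridine (Ψ) and stops reverse transcription there, so that RNA with Ψ is lost from the library. In the second, 3 input libraries were set beside 3 libraries of RNA pulled down with an antibody to Ψ (IP) and 3 of the RNA that the antibody did not bind (flow-through). The IP set asks which ORR1 small RNAs are recovered by the antibody, and the CMC set asks which are lost after treatment. The labels do not say that replicates came from separate mice, so p-values measure only the spread between these libraries. Whole testis was sampled, so fewer cells of a type and less RNA per cell cannot be told apart.

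Piwi-interacting RNAs (piRNAs) are germline small RNAs bound by PIWI proteins, which in the adult mouse testis are chiefly MIWI and MILI. They are cut from long single-stranded precursors, tend to begin with uridine, and are trimmed at the 3′ end until they fit the PIWI protein. Pachytene spermatocytes and round spermatids make very large amounts of them from intergenic clusters, and retrotransposon remnants that lie inside a cluster are copied into its piRNAs. Ψ is an isomer of uridine in which the base is joined to the sugar through carbon.

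Total counts ranged from 11575705 (IP replicate 2) to 58399368 (mock replicate 2), and ORR1 counts from 206842 to 728679 per library. Reads were 14 to 33 nt in the mock and CMC libraries and reached 44 nt in the IP set. Levels are given as CPM, the count divided by all counts listed for the library and multiplied by 1000000. Fold changes are log2 values fitted by edgeR's quasi-likelihood test after TMM scaling over the 6 libraries of a comparison, with the standard error (SE) and the Benjamini-Hochberg adjusted p. A feature was called at an adjusted p under 0.01. Counting error was largest in IP replicates 1 and 2, which had the fewest counts.

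Most ORR1 loci have no sequence here, since a locus could be read only where it lies within an annotated transcript. The following sequences (GENCODE transcripts on GRCm38, the assembly of mm10) are shown because they carry the comparisons described further on. The first 5 are loci called between IP and input. Each began with T (U in the RNA), the base in capitals, and each began at the most abundant 5′ end within 5 nt.

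chr17:27363841-27363869, + strand, ORR1F in an exon of the lincRNA gene Gm49794, higher in IP: Tgatgagtggtccacctcaacagaggtct
chr1:57359559-57359589, - strand, ORR1B1 in 4930558J18Rik, higher in IP: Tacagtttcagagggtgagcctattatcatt
chr8:93423314-93423343, - strand, ORR1B1 in Gm30132, higher in IP: Tgacactgtaagccagccccgattaaatgt
chr17:27357919-27357949, + strand, ORR1F in Gm49794, lower in IP: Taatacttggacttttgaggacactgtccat
chr17:27357912-27357941, + strand, ORR1F in Gm49794, lower in IP: Tagcctttaatacttggacttttgaggaca

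The remaining sequences are from the CMC set and show ladders of 5′ ends. In each ladder the first line is the most abundant interval, the lines under it begin further downstream, and capitals mark the bases that lie upstream of the last 5′ end of the ladder.

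chr17:27357639-27357667, + strand, ORR1F in Gm49794: TTTTggctcatggatctggaagttgaagt
chr17:27357640-27357667, 1 nt downstream: TTTggctcatggatctggaagttgaagt
chr17:27357641-27357667, 2 nt downstream: TTggctcatggatctggaagttgaagt
chr17:27357642-27357664, 3 nt downstream: Tggctcatggatctggaagttga
chr17:27357643-27357668, 4 nt downstream: ggctcatggatctggaagttgaagtt
chr10:66705014-66705044, + strand, ORR1E in an exon of Gm31181: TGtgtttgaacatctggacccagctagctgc
chr10:66705016-66705044, 2 nt downstream: tgtttgaacatctggacccagctagctgc

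ORR1 loci took 1.66%, 1.69% and 1.66% of all counts in the 3 input libraries and 1.26%, 1.25% and 1.22% in the 3 mock libraries. The ORR1F subfamily dominated both sets, with 56.8% ± 0.7 (SD, n = 3) of ORR1 counts in input and 57.8% ± 0.2 in mock. ORR1D followed with 22.2% ± 0.4 and 18.2% ± 0.2. ORR1E held 8.56% ± 0.42 in input, ORR1A 6.00% ± 0.15, ORR1B 3.76% ± 0.06, ORR1G 1.39% ± 0.08 and ORR1C 1.29% ± 0.02. Internal parts held 34.4% ± 0.2 of ORR1 counts in input, 30.2% ± 0.9 in flow-through, 35.8% ± 0.5 in IP, 40.1% ± 0.3 in mock and 39.2% ± 0.5 in CMC.

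**Figure D1:**
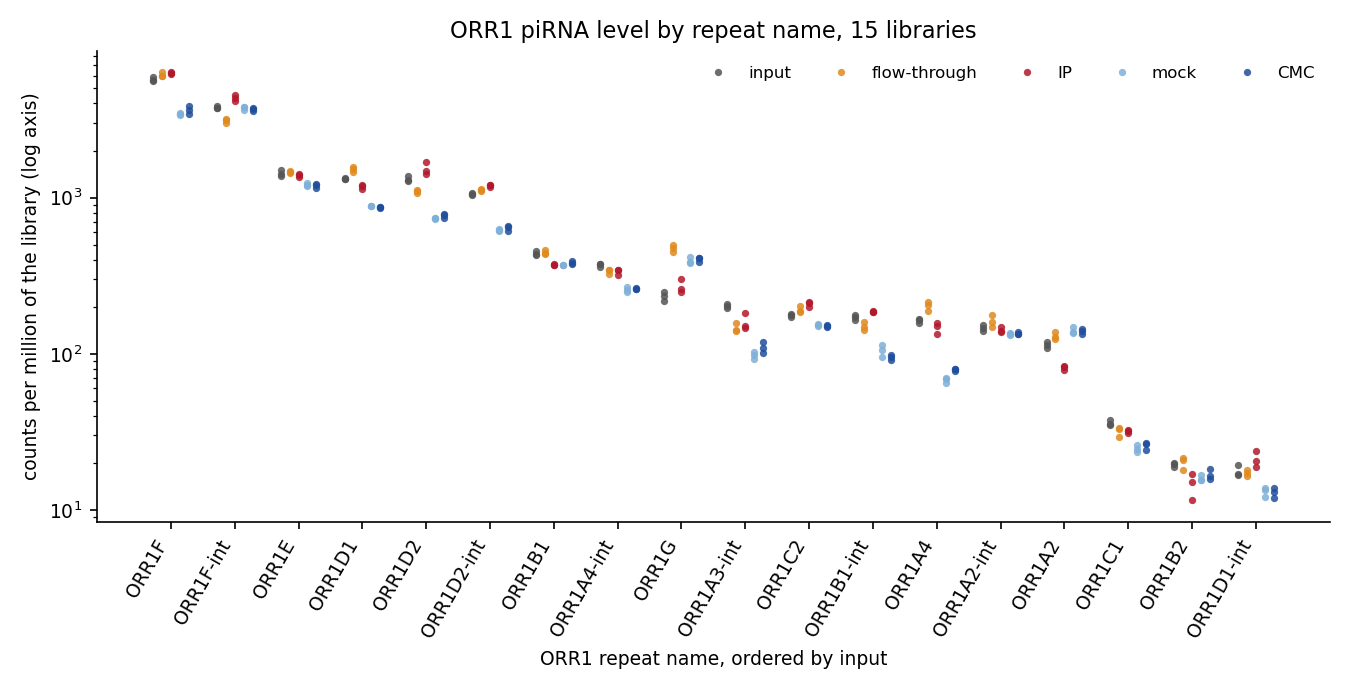
Level of each ORR1 repeat name in each library, in CPM on a log axis. Points are libraries, coloured by group, with 3 libraries a group. ORR1F and ORR1F-int stand highest in all 5 groups, and the ORR1G points of the flow-through libraries (445 to 500 CPM) lie apart from those of input (217 to 249 CPM).

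Few insertions made the RNAs listed here. By the authors' methods, piRNA reads were those that overlapped annotated piRNA clusters, so insertions outside clusters may be missing from this count. Loci of 1 repeat name were joined over gaps of at most 500 bases into elements, of which 401 had a count in the IP set. The 88 elements tested held 98.7% of ORR1 counts, the highest 3 held 43.7%, and 34 made up 90% of them. In the CMC set 444 elements had a count, the 111 tested held 99.1%, and 31 made up 90%. Summed over all 15 libraries, output was nearly always from a single strand. A median of 99.9% of an element's counts lay on its main strand, and 76 of the 88 tested elements were over 99%. By the GENCODE annotation 64 of the 88 lay between genes, 10 in introns, 10 in exons outside UTRs and 4 in UTRs. Within an element, 1 position gave many of the RNAs. In the same sum over both sets, the most abundant 5′ end held a median of 27.7% of an element's counts. The range was 5.0% to 95.0% over 86 elements, and the share within 1 set can differ.

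Per kilobase in input, the highest level was that of an ORR1F LTR at chr15:74640017-74640332 (+ strand, intergenic, 3664 bases from Mroh4), at 6331 CPM per kilobase. An ORR1F LTR at chr12:98396915-98397285 followed at 4413, the ORR1F-int next to it at 2675, an ORR1F LTR at chr7:73810704-73810880 (in an intron of Gm10619) at 2040, an ORR1D1 LTR at chr5:113333131-113333507 at 2026 and an ORR1D2 LTR at chr9:67720353-67720800 at 1877.

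Some of the elements that carried the ORR1 signal had unlike levels in the sets and others had like levels. The highest, chr12 ORR1F-int, had a mean of 3780 CPM in input and 3738 CPM in mock, and in CPM per kb the chr15 ORR1F LTR ranked 1 and ORR1F-int 3 in both. Over the 83 elements tested in both, the log2 ratio of mean mock to mean input CPM ran from -4.45 to 2.09 with a median of -0.63. Mock was at least 4-fold lower than input at 12 elements and at least 4-fold higher at 1. At the chr12 ORR1F LTR the input libraries had 1585, 1693 and 1633 CPM and the mock libraries 81.6, 74.7 and 69.2 CPM. The chr9 ORR1D2 LTR had 812, 802 and 908 CPM in input against 82.6, 86.4 and 78.9 CPM in mock. The opposite pattern was seen at an ORR1D2 LTR at chr15:59287325-59287670 in an exon of Gm36617, with 69.0, 65.9 and 66.8 CPM in input and 274, 290 and 296 CPM in mock. The 2 sets were prepared with different kits and size ranges and hold no library in common, so kit and set cannot be told apart and no test was made between them.

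A single proviral insertion was the largest source. It is described here because of its level, and was singled out after its values were seen. At chr12:98395140-98397285 (2146 bases, - strand, intergenic, nearest coding gene Kcnk10), an upstream ORR1F LTR, the only ORR1F-int element in the data and a downstream ORR1F LTR follow each other. It held 33.5%, 34.0% and 33.6% of ORR1 counts in input, 27.2%, 28.2% and 28.4% in flow-through, and 36.9%, 38.0% and 36.1% in IP. In mock it held 32.3%, 32.4% and 32%, and in CMC 32%, 31% and 30.9%. All IP libraries lay above all input libraries, which lay above all flow-through libraries.

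**Figure D2:**
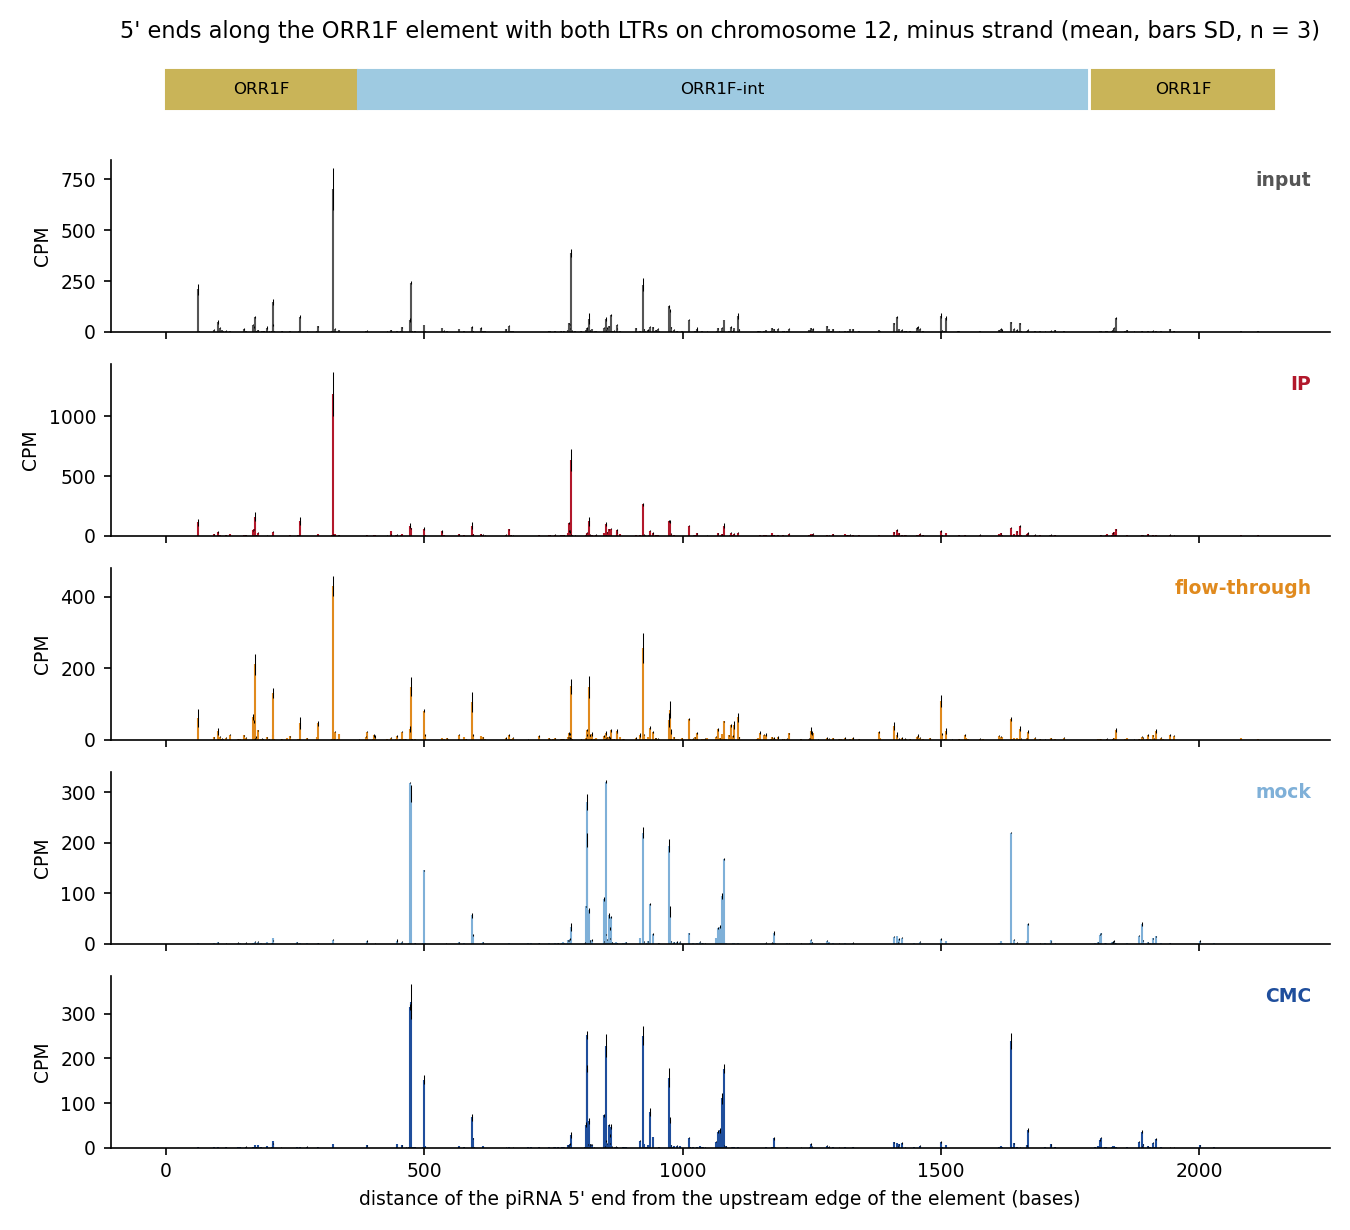
Mean CPM (n = 3) of RNAs that begin at each position of the chr12 ORR1F provirus, plotted against the distance in bases from its 5′ end in the direction of transcription, 1 panel per group. Each panel has its own y scale. The 3 panels of the IP set share their highest 5′ end (distance 323), which reached 1184 CPM in IP, whereas the panels of mock and CMC have theirs inside the internal part.

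The provirus gave RNAs from different positions in the 2 sets. The highest 5′ end in input, 323 bases into the upstream LTR, had 701 ± 103 CPM in input (n = 3), 430 ± 28 in flow-through and 1184 ± 182 in IP, but 8.33 ± 0.65 in mock and 8.01 ± 0.34 in CMC. The second, at distance 783, had 388 ± 20 CPM in input and 33 ± 8.2 in mock. The end at distance 852 was the highest in mock with 320 ± 3 CPM and stood at 64.4 ± 11.4 in input. Ends at 475 and 924 were among the 5 highest in both input and mock, with 243 ± 9 and 233 ± 32 CPM in input and 298 ± 17 and 220 ± 11 CPM in mock.

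In IP against input, ORR1 as a whole rose by little. The input libraries had 16596, 16943 and 16628 CPM and the IP libraries 17713, 18135 and 17745 CPM, with no overlap. The log2 fold change was 0.08 (SE 0.017, edgeR adjusted p = 0.0042). Most of the rise in CPM lay in the chr12 provirus, which had 5640 ± 111 CPM in input and 6610 ± 258 in IP. The summed rise and the ORR1 to MT ratio given below therefore describe this insertion more than ORR1 elements in general. Of the 27 repeat families and groups tested, 25.9% were called higher and 44.4% lower. The MT group of MaLR fell, with 6400 ± 73 CPM in input and 6110 ± 111 CPM in IP (log2 fold change -0.08, adjusted p = 0.0091). The remaining MaLR names also fell, from 6002 ± 105 to 5172 ± 110 CPM (-0.23, edgeR adjusted p = 0.00019), and ERVL fell too (-0.12, adjusted p = 0.0015). The log2 ratio of ORR1 to MT counts within a library, which does not depend on scaling, was 1.36, 1.42 and 1.38 in input and 1.51, 1.59 and 1.55 in IP. The mean difference of 0.16 had p = 0.1 in a two-sided exact permutation test, the smallest that 3 against 3 libraries allow. The call for ORR1 did not hold in edgeR without input replicate 1 (log2 fold change 0.07, adjusted p = 0.023), input replicate 3 (0.07, 0.022) or IP replicate 3 (0.08, 0.0104).

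The comparison with flow-through uses the same IP libraries as that with input. In it ORR1 had a log2 fold change of 0.08 (SE 0.023, edgeR adjusted p = 0.0081), from 16892, 16534 and 16732 CPM in flow-through. The provirus had 4665 ± 79 CPM in flow-through and 6610 ± 258 in IP, a larger gain in CPM than that of ORR1 as a whole. The other ORR1 RNAs together thus had fewer CPM in IP than in flow-through. Here 40.7% of families and groups were called higher and 44.4% lower. The call was lost in 5 of the 6 fits that left out a library (all except the fit without flow-through replicate 1), with log2 fold changes of 0.07 to 0.11. It was also lost without a filter on low counts (0.0497, adjusted p = 0.31) and with the replicate number as a block (0.0831, adjusted p = 0.018). Between mock (12551, 12478 and 12173 CPM) and CMC (12351, 12916 and 12484 CPM) the libraries overlapped, and the log2 fold change of 0.02 (SE 0.018) did not pass the test (edgeR adjusted p = 0.415), where 3.85% of families and groups were called in each direction. The log2 ratio of ORR1 to MT was 1.11 ± 0.02 in mock and 1.12 ± 0.02 in CMC (exact permutation p = 0.5). ERVL was called higher after CMC (log2 fold change 0.11, edgeR adjusted p = 0.00036).

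Among subfamilies, IP against input called 3 of 18 tested ORR1 names higher and 3 lower, where 18.3% of all repeat names were called higher and 20.9% lower. ORR1F-int had 3741, 3856 and 3743 CPM in input and 4171, 4500 and 4357 in IP, a log2 fold change of 0.21 (SE 0.050, edgeR adjusted p = 0.0063). ORR1D2-int rose from 1063, 1060 and 1038 CPM to 1210, 1167 and 1206 CPM (0.19, adjusted p = 0.0053). ORR1C2 rose from 176, 180 and 171 CPM to 199, 213 and 216 CPM (0.26, adjusted p = 0.0049). Its chr11 element, described further on, gained more CPM than the whole name. Of the 5 ORR1C2 elements tested, 1 was called higher and 2 lower, with a median log2 fold change of -0.35. The 3 groups of IP values lay above those of input without overlap.

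ORR1A2 fell furthest. It had 120, 113 and 109 CPM in input and 81.8, 78.8 and 83.4 CPM in IP, a log2 fold change of -0.48 (SE 0.059, edgeR adjusted p = 9.1e-05). ORR1A3-int fell from 207, 195 and 202 CPM to 146, 151 and 182 CPM (-0.32, adjusted p = 0.0072) and ORR1B1 from 428, 453 and 435 CPM to 374, 371 and 369 CPM (-0.24, adjusted p = 0.0041). No IP value of these 3 names reached the lowest input value. Only ORR1A2 of the 6 kept its call whichever library was left out. ORR1F-int was lost without input replicate 1 or 3 or IP replicate 2 or 3 (log2 fold change 0.17 to 0.20) and ORR1C2 without the same 4 (0.23 to 0.25). ORR1D2-int was lost without input replicate 1 or 3 or IP replicate 3 (0.17 to 0.18), ORR1B1 without input replicate 3 or IP replicate 1 or 3 (-0.25 to -0.22), and ORR1A3-int in all fits except the one without IP replicate 3 (-0.33 to -0.25). ORR1A3-int was also lost with DESeq2 size factors (adjusted p = 0.0108).

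Against flow-through, 3 of 18 names were called higher and 5 lower, beside 29.9% and 31.5% of all names. The IP libraries are those of the previous comparison, so the values are given side by side only. ORR1G had 500, 476 and 445 CPM in flow-through, 261, 248 and 301 in IP and 217, 249 and 233 in input. Its log2 fold change was -0.82 against flow-through (edgeR adjusted p = 2.5e-05) and 0.22 against input (adjusted p = 0.051). ORR1F-int (0.47), ORR1D2 (0.47) and ORR1B1-int (0.30) were called higher than in flow-through, and ORR1A2 (-0.68), ORR1A4 (-0.47), ORR1D1 (-0.37) and ORR1B1 (-0.28) lower. Of the 8 ORR1D2 elements tested, 1 (the chr9 LTR) was called higher and 2 lower, with a median log2 fold change of -0.07. ORR1B1 lost its call without flow-through replicate 3 (-0.24, adjusted p = 0.012) and ORR1B1-int without flow-through replicate 2 (0.28, adjusted p = 0.013) or IP replicate 1 (0.30, adjusted p = 0.0102).

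Between CMC and mock none of 20 names was called by edgeR, where 2.88% of all names were called higher and 4.9% lower. At an unadjusted p under 0.05 there were 2 higher and 1 lower. The closest was ORR1A4, with 70.5, 69.0 and 64.6 CPM in mock and 77.8, 80.5 and 80.4 CPM in CMC (log2 fold change 0.21, edgeR adjusted p = 0.0125). DESeq2 called that name only (adjusted p = 0.0012).

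**Figure D3:**
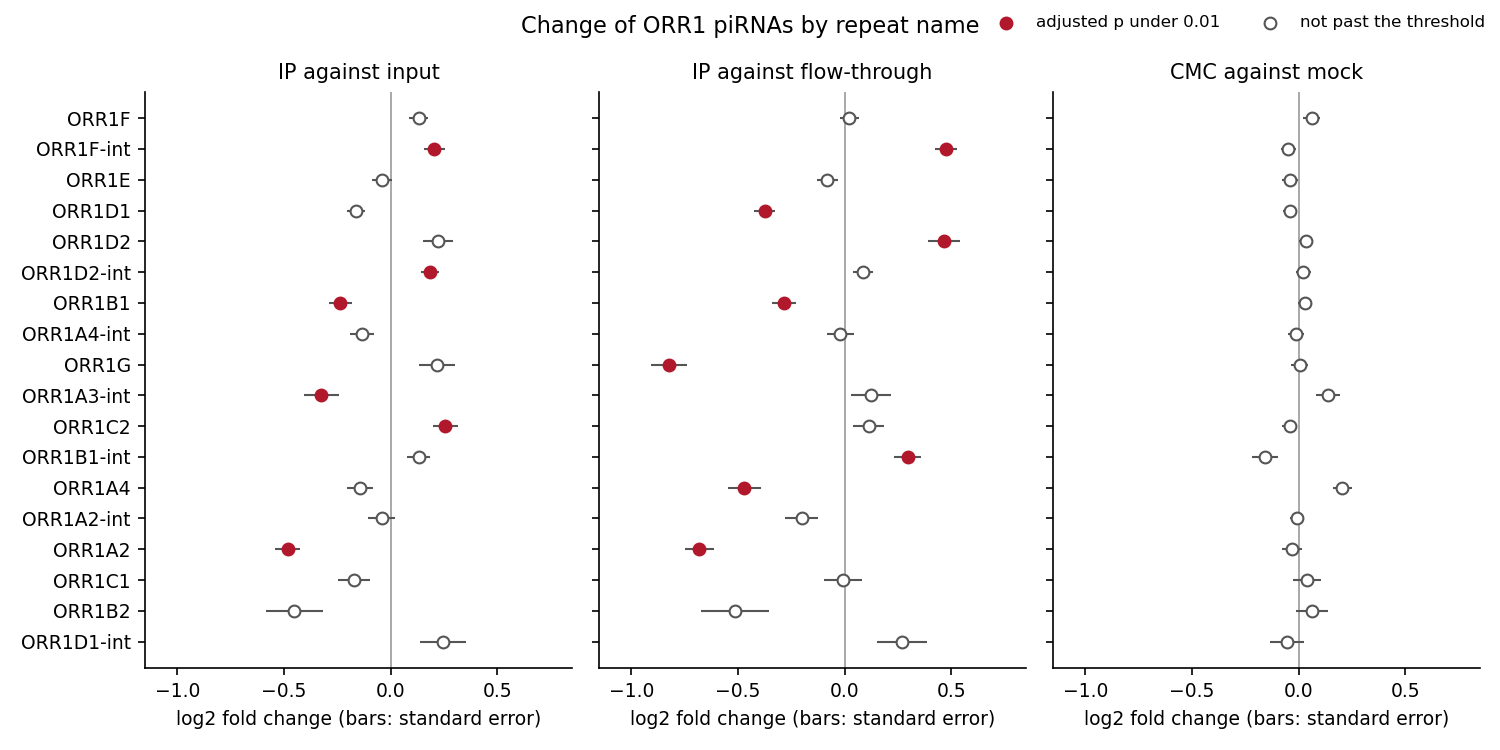
Fitted log2 fold change with its standard error for the 18 ORR1 repeat names tested in both sets, in IP against input, IP against flow-through and CMC against mock. Filled points were called at an adjusted p under 0.01. The CMC points lie between -0.16 and 0.21 with none filled, while the IP points reach from -0.82 to 0.47.

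At the level of elements, IP against input called 16 of 86 higher and 22 lower, beside 21.4% and 23.3% of all repeat elements. Without input replicate 1 the sum of both directions fell from 38 to 22. ORR1A elements gave 0 higher and 8 lower of 18 tested, among them 4 lower of the 5 ORR1A2 elements. ORR1F elements gave 6 higher and 3 lower of 16, ORR1D 4 and 5 of 21, ORR1E 2 and 0 of 13, ORR1B 2 and 3 of 9, ORR1C 1 and 3 of 6, and ORR1G 1 and 0 of 3. Members of 1 subfamily thus moved both ways in ORR1B, ORR1C, ORR1D and ORR1F.

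The largest rise was that of an ORR1C2 LTR at chr11:108420675-108421069 (intergenic, nearest coding gene Cep112). It had 50.2, 59.8 and 51.0 CPM in input, 70.3, 83.1 and 75.2 in flow-through and 106, 113 and 114 in IP. The log2 fold change was 1.08 against input (SE 0.093, edgeR adjusted p = 1.7e-06) and 0.68 against flow-through. The IP values lay above all others, whereas mock (41.9, 41.0 and 43.1) and CMC (39.1, 40.0 and 39.0) differed by -0.13 without passing the test (adjusted p = 0.161).

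An ORR1F LTR at chr17:27363636-27363925, in an exon of Gm49794, rose by 0.86 (edgeR adjusted p = 3.5e-05) from 101, 122 and 100 CPM in input to 194, 216 and 168 in IP. In flow-through it had 354, 288 and 210 CPM, the lowest of them inside the range of IP. The printed sequence that begins at 27363841 belongs to this element, with 2.15, 7.06 and 2.07 CPM in input, 25.8, 23.5 and 13.4 in flow-through and 10.6, 17.8 and 10.9 in IP (1.69 against input, edgeR adjusted p = 3.3e-09). Both fractions of the pulldown thus lay above input for this RNA. An ORR1F LTR at chr7:125351600-125351947 had the same order of means, with 22.4, 27.6 and 22.9 CPM in input, 44.8, 37.5 and 40.1 in IP and 96.0, 79.6 and 72.2 in flow-through (0.77 against input, edgeR adjusted p = 8.3e-05; -0.88 against flow-through, adjusted p = 3.7e-05).

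The falls were as large. The ORR1A2 LTR at chr9:54260512-54260834, in an intron of Cyp19a1 (the gene of aromatase) on the opposite strand, had 13.3, 13.9 and 12.3 CPM in input and 4.97, 5.96 and 6.64 in IP (-1.12, SE 0.142, edgeR adjusted p = 3.5e-05). An ORR1F LTR at chr9:67743113-67743260 fell from 42.7, 45.6 and 48.6 CPM to 19.1, 18.4 and 24.3 CPM (-1.10, adjusted p = 9.4e-06). An ORR1C2 LTR at chr5:149828215-149828548 fell from 34.2, 33.1 and 32.4 CPM to 17.3, 17.0 and 15.9 CPM (-0.97, adjusted p = 4.8e-06). In flow-through the latter pair had 38.3, 42.9 and 41.5 CPM and 26.0, 30.6 and 28.2 CPM, also above IP.

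Of the 5 elements highest in input, 2 were called higher in IP. The chr12 ORR1F LTR rose to 2061, 2139 and 1776 CPM (log2 fold change 0.31, edgeR adjusted p = 0.0072), and the chr9 ORR1D2 LTR to 1042, 1268 and 933 CPM (0.39, adjusted p = 0.0082). Both calls were fragile: the first was lost in all 5 fits without input replicate 1, 2 or 3 or IP replicate 1 or 2 (0.25 to 0.34), and the second without input replicate 1 or 2 or IP replicate 1 or 2 (0.25 to 0.42). ORR1F-int at chr12 (0.23, adjusted p = 0.015), the chr15 ORR1F LTR (0.18, adjusted p = 0.048) and an ORR1D2-int element at chr15:78657150-78658246 (0.12, adjusted p = 0.131) were not called. ORR1F-int has a single element, so its subfamily and element values rest on the same counts in tables that were scaled and adjusted separately.

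Against flow-through, 19 of 88 elements were called higher and 27 lower, beside 29% and 29.9% of all elements. The chr12 ORR1F-int (0.63), the chr12 ORR1F LTR (0.71) and the chr9 ORR1D2 LTR (1.02) were all called higher.

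CMC against mock called 1 of 111 elements higher and 1 lower by edgeR, beside 1.61% and 3.37% of all elements. DESeq2 called 6 higher and 2 lower, and at an unadjusted p under 0.05 the edgeR counts were 16 and 15. The element called lower was an ORR1F LTR at chr5:113331534-113331635 (- strand, intergenic, nearest coding gene Sgsm1). It had 25.1, 24 and 23.7 CPM in mock and 17.3, 19.5 and 15.3 in CMC (log2 fold change -0.52, SE 0.083, edgeR adjusted p = 0.0046). The same element had 39.8, 42.8 and 39.2 CPM in input and 65.2, 57.4 and 65.0 in IP (0.65, adjusted p = 6.2e-05), and 52.9, 51.4 and 51.4 in flow-through (0.41, adjusted p = 0.0024). The call against flow-through was lost without flow-through replicate 2 (0.41, edgeR adjusted p = 0.011) or IP replicate 3 (0.39, 0.012). It was thus lower after CMC and higher in IP, although the CMC call was lost without mock replicate 2 or 3 (-0.52 in both, adjusted p = 0.024 in both).

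The element called higher after CMC was an ORR1F LTR at chr17:27295733-27295899 (- strand, intergenic, nearest coding gene Lemd2), with 196, 189 and 190 CPM in mock and 236, 232 and 240 in CMC (0.27, edgeR adjusted p = 0.0069). This call was lost in 5 of the 6 fits that left out a library (0.26 to 0.29), all but the fit without CMC replicate 1. In the IP set it had 174, 201 and 163 CPM in input, 265, 294 and 290 in IP and 507, 387 and 368 in flow-through.

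Single loci were called in both directions. In IP against input 506 of 9896 tested loci were called higher and 1049 lower (5.11% and 10.6%), beside 5.45% and 10.7% of all 686863 loci tested. The median log2 fold change was -0.12, against -0.10 over all loci. Against flow-through the counts were 763 and 336 (7.71% and 3.4%, beside 9.3% and 3.56% of all loci). The shares of ORR1 loci called were near those of all loci in both. The total of 1555 against input became 843 without input replicate 1 and 944 without input replicate 3.

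Calls of both directions lay side by side in the same insertions. The 506 loci higher in IP came from 62 elements and 285 5′ ends, and the 1049 lower ones from 80 elements and 499 5′ ends. ORR1F-int at chr12 alone held 133 of the higher and 179 of the lower loci.

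Within the provirus, the RNA at chr12:98396820-98396850 (31 nt, - strand) had 3.31, 2.23 and 3.18 CPM in input and 17.2, 13.4 and 15.0 CPM in IP (log2 fold change 2.23, SE 0.256, edgeR adjusted p = 1.5e-15). The RNA at chr12:98396781-98396810, whose 5′ end lies 40 bases downstream, had 200.5, 195 and 207 CPM in input and 52.3, 48.8 and 60.9 CPM in IP (-2.03, SE 0.200, adjusted p = 8.7e-21). At chr12:98396346-98396376 the values fell from 10.4, 8.27 and 10.9 CPM to 0.60, 0.60 and 0.71 CPM (-4.04, adjusted p = 2.8e-30). The RNA at chr12:98396145-98396177 (33 nt) had 9.18, 6.52 and 9.06 CPM in input and 0.26, 0.17 and 0.17 CPM in IP, which rest on 3, 2 and 4 reads. It passed the count filter through its input reads, so no fold is given. Each had IP libraries apart from input libraries, in opposite directions, inside 1 internal part.

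The most abundant RNA in input, chr12:98396934-98396962 (29 nt, in the upstream LTR), had 393, 528 and 448 CPM there, 287, 259 and 248 in flow-through and 807, 946 and 721 in IP (0.71 against input, edgeR adjusted p = 0.00081). In mock it had 5.02, 4.76 and 3.87 CPM. Its call against input was lost without input replicate 1 (0.62, adjusted p = 0.068), input replicate 3 (0.66, 0.05) or IP replicate 2 (0.57, 0.0104). The RNA at chr9:67720700-67720730 (31 nt) had 214, 208 and 250 CPM in input, 39.1, 36.7 and 41.6 in flow-through and 426, 575 and 315 in IP (0.83 against input, adjusted p = 0.00014; 3.73 against flow-through, adjusted p = 4.3e-44). Its call against input was lost without input replicate 1 (0.80, adjusted p = 0.015) or IP replicate 2 (0.54, 0.02).

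The exon of Gm49794 held the 2 printed sequences that fell. The RNA from 27357919 had 10.7, 7.36 and 8.74 CPM in input and 0.77, 0.52 and 1.04 in IP (-3.57, edgeR adjusted p = 2.6e-25), and 1.77, 1.51 and 1.54 in flow-through. The RNA from 27357912 had 15.1, 13.8 and 14.9 CPM in input and 1.88, 1.90 and 1.46 in IP (-3.22, adjusted p = 1.1e-26). By contrast, the ORR1B1 RNA on chr1 rose from 5.11, 4.83 and 4.08 CPM to 12.8, 10.6 and 13.1 CPM (1.24, adjusted p = 1.3e-05), and the one on chr8 from 2.71, 3.5 and 3.13 CPM to 7.96, 7.08 and 8.27 CPM (1.19, adjusted p = 0.00013). All 5 had IP values outside the range of input.

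In CMC against mock, 100 of 7485 tested loci were called higher and 34 lower (1.34% and 0.454%), beside 1.07% and 0.654% of all 556583 loci tested. With the replicate number as a block the counts were 108 and 55, a rise of over 1.5 times in the lower direction. Without mock replicate 2 the total fell from 134 to 77 and without CMC replicate 2 to 84. The called loci were concentrated: the 34 lower ones lay in 8 elements and at 14 5′ ends, with 12 in an ORR1D1 LTR at chr2:92587222-92587606 (intergenic, 12101 bases from Chst1) and 9 in chr12 ORR1F-int. The 100 higher ones lay in 25 elements at 65 5′ ends. Their median length was 27 nt, against 28 nt over all tested and 29 nt over those called lower.

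Loci called higher after CMC began just downstream of an abundant 5′ end. For each locus the offset was taken from its own 5′ end to the most abundant 5′ end within 5 nt on the same strand, summed over the 6 libraries. Of the 100 ORR1 loci called higher, 71 lay 1 to 5 nt downstream (22 at 1 nt, 26 at 2, 12 at 3, 6 at 4 and 5 at 5), 24 at the abundant end itself and 5 upstream. Some of the 71 passed the count filter only through their CMC reads, the group where they were high. How many did so was not counted, so these shares are descriptive only. Among the 7351 tested ORR1 loci not called, 26.1% lay downstream. Over all repeats and other loci the share among loci called higher was 63.4%. Of the 34 called lower, 1 lay downstream, 18 at the abundant end and 15 upstream (44.1%), beside 26.6% upstream among all loci called lower and 23.8% among ORR1 loci not called. The 34 began at only 14 5′ ends, and 12 lay near 1 end on chr2, so they are not independent.

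The counts of each library showed the same order. This share was chosen after the data were seen and uses the same libraries and 5′ ends as the calls. It describes the pattern and is not separate support for it. ORR1 counts 1 to 5 nt downstream of an abundant 5′ end made up 16.9%, 17.2% and 17.1% in mock and 18.5%, 19.4% and 19.4% in CMC, a difference of 2.03 percentage points (two-sided exact permutation test, p = 0.1, the smallest 3 against 3 allow). Outside ORR1 the share went from 13.7% ± 0.1 to 15.0% ± 0.4, a difference of 1.34 points with the same p of 0.1 in the exact permutation test. The median log2 fold change of tested ORR1 loci was -0.02 at the abundant end. From 1 to 5 nt downstream it was 0.23, 0.17, 0.10, 0.0020 and 0.10, and from 1 to 5 nt upstream -0.01, -0.08, -0.10, -0.0024 and -0.06. In IP against input the order was opposite: ORR1 counts downstream made up 17.5% ± 0.3 in input and 15.8% ± 0.3 in IP (difference -1.69 points, exact permutation p = 0.1), and outside ORR1 they made up 17.3% ± 0.1 and 16.1% ± 0.5 (exact permutation p = 0.1). Among ORR1 loci called higher in IP 14.8% lay downstream, against 28.2% of those not called, and over all loci these shares were 17.7% and 27.6%. Against flow-through, with the same IP libraries, ORR1 counts downstream made up 17.0% ± 0.5 in flow-through and 15.3% ± 0.4 in IP (difference -1.71 points, exact permutation p = 0.1), and outside ORR1 16.2% ± 0.1 and 15.7% ± 0.6 (exact permutation p = 0.1). There 18.6% of ORR1 loci called higher, 20.5% of those called lower and 28.2% of those not called lay downstream, beside 20.8%, 17.2% and 27.0% over all loci.

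**Figure D4:**
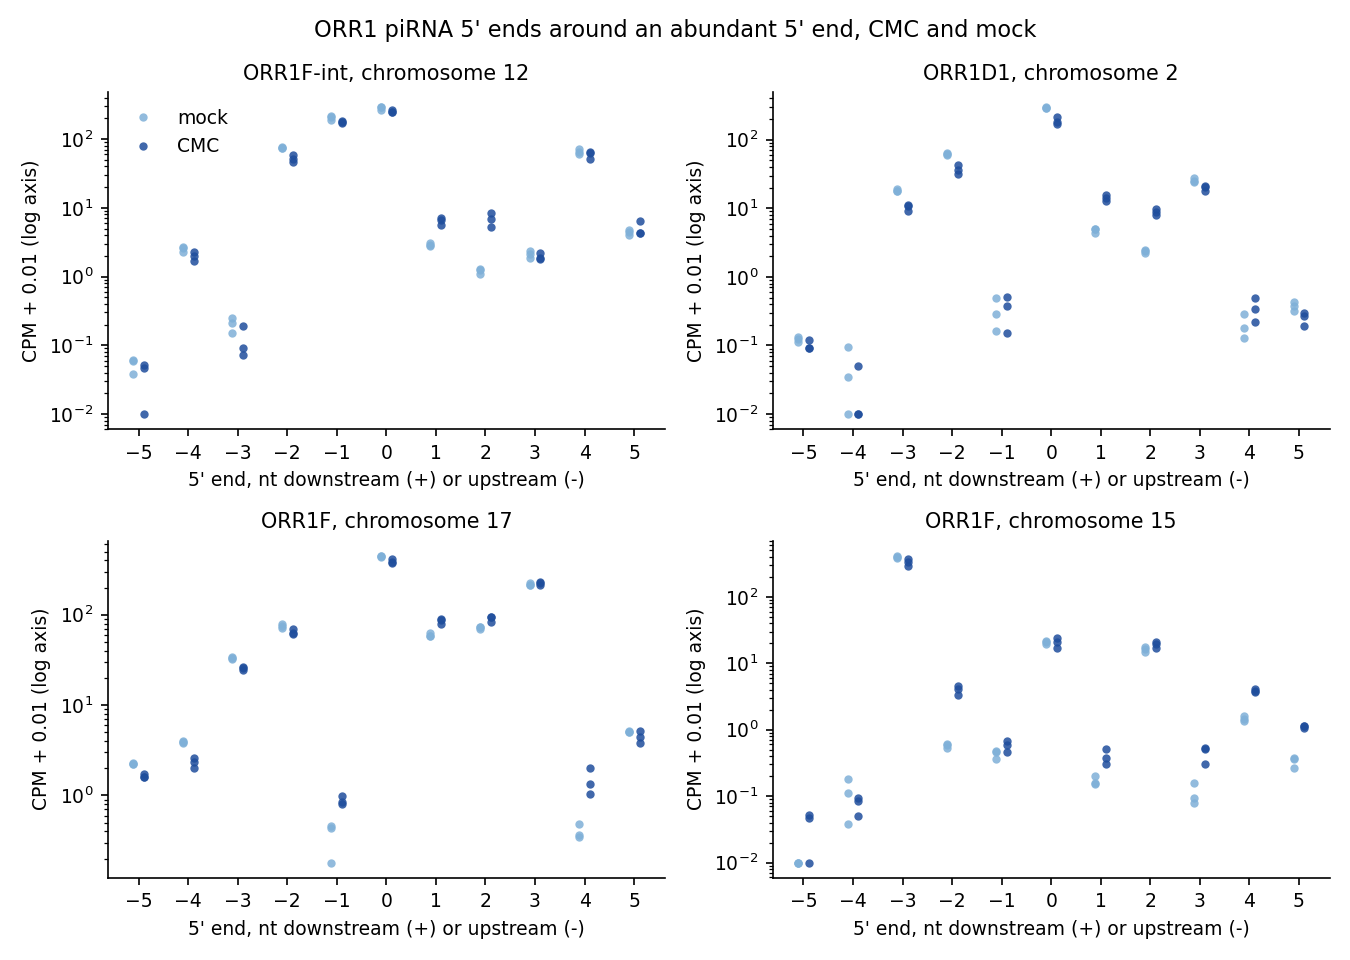
CPM (with 0.01 added, log axis) of RNAs that begin at each position around an abundant 5′ end, in nt from that end, for 4 ORR1 elements; points are the 3 mock and 3 CMC libraries. At 1 and 2 nt downstream in the chr2, chr12 and chr17 elements the CMC points stand above all mock points. The chr15 panel is drawn from 74640144, 3 nt downstream of that element's highest end at 74640141.

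The chr2 ORR1D1 LTR showed it at 1 site. RNAs that began at 92587254 (+ strand) had 292, 288 and 297 CPM in mock and 215, 179 and 170 in CMC, 0.642 times the mock mean. Those that began 1 nt downstream had 4.30, 5.05 and 4.97 CPM in mock and 14.1, 12.7 and 15.5 in CMC (2.96 times), and those 2 nt downstream 2.47, 2.35 and 2.22 against 8.77, 7.91 and 9.62 (3.74 times). At 2 nt upstream the mean was 62.1 CPM in mock and 37.4 in CMC, and at 3 nt downstream 25.5 and 19.8. None of these groups overlapped. The site was chosen after its values were seen, for its many called loci.

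Among single RNAs at this site, chr2:92587254-92587283 (30 nt) fell from 164, 161 and 170 CPM to 114, 89.4 and 83.8 CPM (log2 fold change -0.85, SE 0.119, edgeR adjusted p = 3.4e-06, but 0.017 when loci of every count were tested). chr2:92587256-92587283, which starts 2 nt further on and ends at the same base, rose from 0.48, 0.62 and 0.62 CPM to 4.05, 3.48 and 4.28 CPM (2.70, adjusted p = 3.3e-13). The first had 9.77, 10.9 and 12.1 CPM in input and 40.9, 25.7 and 30.0 in IP (1.41, adjusted p = 1.6e-08).

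In chr12 ORR1F-int, RNAs from 98396470 (- strand) had 262, 288 and 290 CPM in mock and 248, 245 and 263 in CMC, ranges that overlapped. At 2 nt downstream the level went from 1.07, 1.27 and 1.22 CPM to 5.21, 6.91 and 8.38 CPM (5.76 times). In the chr17 Gm49794 element the end at 27357639 had a mean of 444 CPM in mock and 390 in CMC, the end 1 nt downstream 59.8 and 85.3, the end 2 nt downstream 71.8 and 90.2, and the end 3 nt downstream 217 and 222 with overlapping ranges. In the chr15 ORR1F LTR the end at 74640141 had a mean of 402 CPM in mock and 332 in CMC, while the next base had 0.59, 0.58 and 0.52 CPM in mock and 4.58, 4.10 and 3.33 in CMC (7.08 times).

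The printed ladders give levels base by base; their shortened RNAs were chosen because they were called higher, so the values describe them. The full chr17 RNA from 27357639 had 152, 146 and 128 CPM in mock and 135, 141 and 110 in CMC (log2 fold change -0.21, not called). The one lacking its first T had 9.66, 8.77 and 9.04 CPM against 17.6, 18.9 and 19.7 (0.97, edgeR adjusted p = 9.4e-07), and the one lacking a further T 8.76, 8.63 and 8.51 against 15.3, 17.1 and 15.7 (0.82, adjusted p = 2.5e-05). The RNA that starts 3 nt downstream rose by 0.56 (adjusted p = 0.0073). The one that starts 4 nt downstream, beyond the run of T, had 2, 2 and 1 reads in mock and 15, 5 and 6 in CMC and passed the count filter through its CMC reads, so no fold is given. At chr10 the RNA from 66705014 had 36.7, 40.0 and 41.3 CPM in mock and 39.0, 37.1 and 38.1 in CMC. The RNA without its first TG had 1, 7 and 3 reads in mock and 60, 37 and 49 in CMC, or 0.028, 0.12 and 0.075 against 1.23, 1.53 and 1.79 CPM. It too passed the count filter through its CMC reads, and no fold is given. Base composition at these ends was not compared over all loci, since only 10.6% of the ORR1 loci tested in the CMC set had a sequence, short of the 80% needed.

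The CMC and IP sets share no library, and 3966 ORR1 loci were tested in both. Of the 34 loci lower after CMC, 29 were among them, and 14 of these 29 (48.3%) were called higher in IP than in input, with none called lower. Over all loci 27.4% of those lower after CMC were called higher in IP and 5.28% lower, so none of 29 is near the latter share. Among all loci tested in both sets, 7.99% of ORR1 loci and 7.87% of all loci were called higher in IP. The 14 made up 4.42% of the 317 ORR1 loci called higher in IP and tested in both sets, beside 3.79% over all loci. These 14 came from only 3 elements: 10 from the chr2 ORR1D1 LTR, 2 from chr12 ORR1F-int and 2 from the chr5 ORR1F LTR. Since loci of an element overlap in sequence, they are not independent of each other. Of the 52 loci higher after CMC and tested in both, 2 were called higher in IP and 8 lower (15.4%). Over all loci 106 of 2811 were called higher and 19.9% lower, so both counts are near those shares.

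The 4 named loci that fell most after CMC were spread over 3 elements. chr5:113331555-113331578 had 3.45, 3.56 and 4.14 CPM in mock and 1.66, 1.57 and 1.17 in CMC (-1.38, SE 0.185, edgeR adjusted p = 1.2e-06). chr7:125363355-125363384, in ORR1B1-int, had 2.61, 1.93 and 1.90 CPM in mock and 1.29, 0.66 and 0.80 in CMC (-1.18, adjusted p = 0.00064), a call lost without CMC replicate 2 (-1.0, adjusted p = 0.017). In the IP set it had 0 reads in each flow-through library and 15, 10 and 9 in IP, with 7, 5 and 1 in input. chr2:92587251-92587279 had 4.27, 3.73 and 3.54 CPM in mock and 2.17, 1.45 and 1.5 in CMC (-1.18, adjusted p = 2.2e-05), and in the IP set 1.20, 2.29 and 2.01 in input against 5.22, 3.89 and 5.35 in IP (1.29, adjusted p = 0.00024, and 1.03 with 0.031 without input replicate 1). The last, chr5:113331553-113331578, fell by 1.18 (adjusted p = 0.0089) from 2.27, 1.4 and 1.55 CPM to 1.19, 0.79 and 0.18 CPM, and its call was lost in 5 of the 6 fits without a library, all but the one without CMC replicate 1 (-1.35 to -0.78), and by DESeq2 (-1.31, adjusted p = 0.537).

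ORR1 RNAs were mostly 29 to 31 nt, the range usual for MIWI-bound piRNAs. That share was 64.9%, 65.9% and 65.1% in input and 66.7%, 67.1% and 67.4% in IP, a difference of 1.79 points (two-sided exact permutation test, p = 0.1). Outside ORR1 the difference was 1.87 points. In IP against input the median log2 fold change of tested ORR1 loci was -1.71 at 19 nt (14 loci), -0.81 at 20 nt, -0.28 at 25 nt, 0.01 at 30 nt, 0.08 at 32 nt, -0.11 at 34 nt, -0.22 at 36 nt, 0.03 at 37 nt (22 loci), -0.85 at 38 nt (21 loci) and -1.28 at 43 nt (9 loci). Over all loci it was -1.33 at 19 nt, -0.61 at 20 nt, -0.12 at 25 nt, -0.07 at 30 nt and 0.10 at 32 nt. At longer lengths the median over all loci was -0.26 at 34 nt, -0.59 at 36 nt, -0.68 at 37 nt, -0.65 at 38 nt and -0.65 at 43 nt. In mock the share of 29 to 31 nt was 59.5%, 58.7% and 57.0% and in CMC 57.4%, 56.3% and 53.8%, which overlapped (difference -2.55 points, exact permutation p = 0.2), with -2.43 points outside ORR1. Each CMC library lay below the mock library of the same number (exact sign-flip permutation p = 0.25, the smallest 3 pairs allow).

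**Figure D5:**
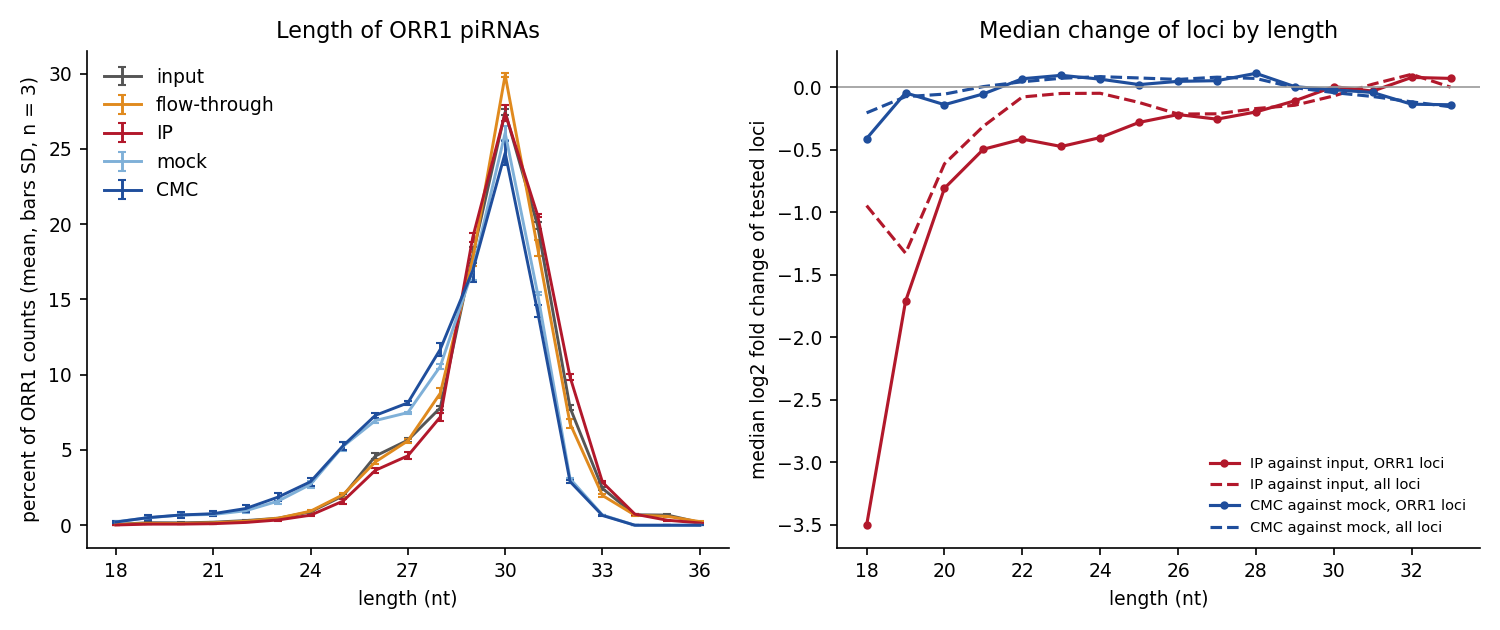
Left, share of ORR1 counts at each length in nt, as the mean of 3 libraries with its SD, for each group; right, median log2 fold change of tested loci at each length for ORR1 loci (solid) and all loci (dashed) in IP against input and CMC against mock. In the share of 29 to 31 nt the IP libraries (66.7% to 67.4%) lay above the input libraries (64.9% to 65.9%), and the mock and CMC libraries held less of it (53.8% to 59.5%). On the right, drawn from 18 to 33 nt, the ORR1 curve for IP lies lowest at 18 nt, a point of 2 loci, and within 0.08 of 0 from 30 to 33 nt.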

How the data were processed

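Small RNA counts were taken for 15 libraries in 5 groups of 3. Per the labels and methods, the authors trimmed adapters with Cutadapt, set tRNA fragments aside, mapped to mm10 with Bowtie 2 and annotated intervals with BEDTools (Bowtie2, bedtools and mm10 are named in the submitters' processing notes), and deposited 1 table per library of raw read counts per genomic interval, strand and repeat. How reads with several matches were counted is not given in the sources used here, so counts at near-identical ORR1 copies are uncertain. The methods also describe an overlap of reads with annotated piRNA clusters, which defined the piRNA reads. A total of 810 ORR1 loci were also listed under another repeat. Reads were size-selected differently in the labels and the methods. Start positions, deposited counting from 0, are printed counting from 1.

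ORR1 members and all lists were chosen with earlier results of these data known. Tables were fitted over all features: loci with more than 20 counts in the set (686863 in the IP set, 556583 in the CMC set), elements, repeat names and families averaging at least 100 counts. The edgeR 4.0.16 quasi-likelihood test (R 4.3.3) with TMM scaling and Benjamini-Hochberg adjustment compared 3 against 3 libraries, called at adjusted p under 0.01. DESeq2 1.42.0, other filters, scalings and left-out libraries were alternatives. Shares and ratios were compared by exact permutation tests over libraries. ORR1 loci past the filter held 90.7% and 93.6% of ORR1 counts in the IP and CMC sets. Intervals and fits cover the spread between these libraries; PCR copies without molecular identifiers are not independent molecules. Scripts were tested on simulated data.

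Named loci had to average at least 50 counts, be called, and have the same sign in each of the 9 possible library pairs. Of these the 4 that rose most and the 4 that fell most were picked in IP against input and in CMC against mock. The 5 loci highest in input and in mock were picked as well, and only some of the picked loci are described above. Named elements were the 5 highest in input and the 3 largest called rises and falls. Other named items (the provirus, the site ladders, loci with a sequence) were picked after values were seen. Replicates differed beyond sampling noise (chi-square per degree of freedom of 1.73 to 6.08), so none was merged. Same-numbered mock and CMC libraries deviated together (correlations 0.125, 0.146 and 0.295 over 87755 loci), and were taken as paired from the data, since the labels do not say what the number marks. CMC replicate 2 correlated more with mock replicate 1 (0.229) than with its own number, so the pairing is uncertain; the blocked count is given where it changed a result.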

Additional observations from a re-analysis of the deposited data

How the results depend on the processing

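Named elements and loci whose calls depended on a library are given with their values in the report; the values here are counts of calls in both directions unless stated, and the cause was not tested except where fewer samples or more features follow from the setting. For loci in IP against input (1555 calls), DESeq2 gave 976, no filter 1012, and leaving out a library 843 to 1565. Against flow-through (1099) no filter gave 723. For CMC against mock (134) no filter gave 89 and leaving out a library 77 to 155. For elements the ranges were 22 to 33 in IP against input (38) and 0 to 5 in CMC against mock (2), where DESeq2 called 8. For subfamilies, leaving out a library gave 1 to 6 in IP against input (6), with 2 without input replicate 1, 1 without input replicate 3, 3 without IP replicate 2 and 2 without IP replicate 3, and DESeq2 called 1 in CMC against mock (0). All 12 alternatives for elements and all 11 for subfamilies in IP against flow-through stayed within 1.5 times the reported count.

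The summed ORR1 log2 fold change against input ran from 0.0701 to 0.0853 without a library. Against flow-through it was 0.0497 without a filter (adjusted p = 0.31 in edgeR) and 0.0722 to 0.111 without a library. The log2 ORR1 to MT difference between CMC and mock ran from -0.000172 to 0.0243.

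A replicate block was fitted for each comparison. In IP against input and IP against flow-through the same-numbered libraries did not all deviate together (correlations 0.251, 0.303 and -0.029, and 0.089, 0.182 and -0.046), so they share only a number. With the block, calls were 1356 and 926 loci, 40 and 47 elements and 9 and 9 subfamilies, and the summed log2 fold change against flow-through was 0.0831 (adjusted p = 0.018 in edgeR, not called). In CMC against mock the block gave 163 loci, 3 elements and 0 subfamilies.

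Some subfamilies that were not called changed sign: ORR1C1 in IP against flow-through (0.0039 without a filter, -0.0489 to 0.0456 without a library), ORR1G in CMC against mock (-0.0063 without a filter, -0.0149 to 0.0407), ORR1A2-int in IP against input (-0.0827 to 0.0059), ORR1A4-int in IP against flow-through (-0.0518 to 0.0159), and, in CMC against mock, ORR1A0-int (-0.0031 to 0.134), ORR1A1 (-0.0305 to 0.216), ORR1A2 (-0.0596 to 0.0092), ORR1A2-int (-0.0164 to 0.0057) and ORR1A4-int (-0.0352 to 0.0174). The share downstream of an abundant 5′ end, with its blocked and left-out-library values, was chosen after seeing the data. With 3 libraries a group, an exact test cannot go below 0.1, and low loci limit the precision of single fold changes.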
